A study of Mus musculus with 18 samples.

Results

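The EGF receptor ligands examined here are 8 genes, Areg, Ereg, Hbegf, Tgfa, Btc, Epgn, Egf and Nrg1, matched by gene symbol among the 55536 genes of the deposited count table. All 8 were found, and all 8 passed the filter on low counts that left 17092 genes for testing. RNA had been sequenced from organoids, small balls of epithelial cells cultured in a gel, grown from the mammary glands of C57BL/6 mice aged 6 to 7 weeks. The mice were wild type (WT) or lacked RasGRP1 (RasGRP1-/-, called KO), an activator of Ras, and the labels give no other allele and do not say which part of the gene was removed. Each genotype was grown for 5 days in 3 media: EGF at 2.5 nM (EGF medium), NGS-Wnt at 0.1 nM with Rspo2 at 8.3 nM (RW medium), or all 3 factors at those doses (ERW medium). NGS-Wnt is a designed protein that activates the Wnt receptors, and Rspo2, R-spondin 2, strengthens the response of cells to Wnt. All 6 groups shared the matrigel, the DMEM/F12 base and its insulin, transferrin and selenium, and each group had 3 replicates, 1 in each of 3 labelled batches. The labels do not say which mice gave which culture, so the p-values below measure the spread between these cultures.

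The ligands of this family are made as precursors anchored in the cell membrane, and metalloproteases of the ADAM family cut them to release the active growth factor. Amphiregulin (Areg), TGF-alpha (Tgfa), epigen (Epgn) and EGF itself bind the EGF receptor (Egfr). HB-EGF (Hbegf), betacellulin (Btc) and epiregulin (Ereg) also bind Erbb4, and neuregulin 1 (Nrg1) binds Erbb3 and Erbb4 and not Egfr. In the mammary gland amphiregulin acts downstream of the estrogen receptor and is known for its part in the growth of ducts.

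Total counts were between 24290097 and 31269899 per library. Rasgrp1 itself was rare, with 6 to 28 counts in the 9 WT libraries and 0 to 9 in the 9 KO libraries. It was lower in KO than in WT in 9 of 9 pairs of the same medium and batch. The 3 KO libraries of batch 2 stood apart, with 18926 to 19330 genes detected against 20274 to 22319 in the other 15. Differences between genotypes that rest on them are therefore also given without batch 2, whereas correlations are not. The 9 markers of mammary epithelium, among them Epcam and the keratins Krt8 and Krt14, summed to 6888 CPM or more in every library.

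Epgn, Ereg, Areg and Btc lie in 1 cluster on chromosome 5 and are the 4 protein-coding genes between positions 91027464 and 91402994 of GRCm38, a span of 375.5 kb. Epgn, Ereg and Areg read on the + strand and Btc on the - strand. Tgfa is on chromosome 6 (86195223 to 86275719), Egf on chromosome 3 (129677565 to 129755316) and Nrg1 on chromosome 8 (31814551 to 32884029). The promoters of Areg and Tgfa are shown because these are the EGF receptor ligands that changed together between media, and those of Epgn and Btc because they are the other genes of the cluster with a matched entry and did not pass the test. Sequences are the 250 bases before the start in RefSeq on GRCm38.p6, 5' to 3' on the gene's strand, at chr5:91139349-91139598 (Areg), chr6:86194972-86195221 (Tgfa), chr5:91027267-91027516 (Epgn) and chr5:91402995-91403244 (Btc). RefSeq entries were matched for Areg, Tgfa, Epgn, Btc and Egf. Capitals mark matches to the motifs searched.
Areg: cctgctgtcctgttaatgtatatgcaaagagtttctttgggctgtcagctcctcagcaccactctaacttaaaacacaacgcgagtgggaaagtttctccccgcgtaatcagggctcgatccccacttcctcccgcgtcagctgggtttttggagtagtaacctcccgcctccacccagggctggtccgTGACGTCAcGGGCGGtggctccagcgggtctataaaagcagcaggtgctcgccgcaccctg
Tgfa: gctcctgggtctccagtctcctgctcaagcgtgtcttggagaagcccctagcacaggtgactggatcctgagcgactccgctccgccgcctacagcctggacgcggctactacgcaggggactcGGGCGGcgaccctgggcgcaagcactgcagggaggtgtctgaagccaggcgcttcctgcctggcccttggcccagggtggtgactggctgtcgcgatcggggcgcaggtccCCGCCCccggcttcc
Epgn: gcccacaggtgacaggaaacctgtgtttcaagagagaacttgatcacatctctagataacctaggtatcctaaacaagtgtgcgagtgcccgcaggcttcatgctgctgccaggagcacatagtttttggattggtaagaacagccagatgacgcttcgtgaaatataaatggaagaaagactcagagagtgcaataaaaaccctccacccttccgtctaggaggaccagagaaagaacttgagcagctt
Btc: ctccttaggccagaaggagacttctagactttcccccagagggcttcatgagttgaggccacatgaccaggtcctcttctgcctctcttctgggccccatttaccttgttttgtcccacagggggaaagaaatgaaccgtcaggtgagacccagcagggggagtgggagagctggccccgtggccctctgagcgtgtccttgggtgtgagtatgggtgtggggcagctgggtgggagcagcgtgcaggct

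The motifs searched on both strands were ETS (CCGGAAG), AP-1 (TGANTCA), CRE (TGACGTCA), TCF/LEF (CTTTGAT) and Sp1 (GGGCGG). The Areg window held the CRE motif, the site known to bind CREB, with its first base at -61 from the start, and 1 Sp1 motif at -52. The CRE motif was found in 1.56% of 32536 promoter windows of the same length. The Tgfa window held 2 Sp1 motifs, at -126 and -15, and 33.0% of promoters held at least 1. The Epgn and Btc windows held none of the motifs. ETS, AP-1 and TCF/LEF motifs, present in 6.95%, 6.73% and 3.21% of promoters, were in none of the 4 windows shown. Of the 2 Egf windows, which are not shown, 1 held an ETS motif at -45.

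Levels were first scaled to library size as CPM, and levels between genes were compared as CPM divided by exon length in kb. Areg had the highest level, with a mean of 21.2 ± 7.53 CPM per kb (SD, n = 18), and was above Tgfa in 18 of 18 libraries. Tgfa followed at 8.15 ± 2.97 CPM per kb and was above Epgn in 17 of 18. Epgn (3.88 ± 3.70 CPM per kb), Hbegf (3.40 ± 3.25) and Btc (1.79 ± 0.372) did not keep an order: Epgn was above Hbegf in 10 of 18 libraries and Hbegf above Btc in 11 of 18. Nrg1 was below Btc in 16 of 18 libraries at 0.996 ± 0.435 CPM per kb. Ereg at 0.431 ± 0.391 and Egf at 0.104 ± 0.0363 CPM per kb were the lowest. The lengths are unions of all annotated exons, from 1.215 kb for Areg to 11.28 kb for Egf, and this order rests on them. By mean CPM alone Tgfa (52.9) stood above Areg (25.7), and Nrg1 (10.3) above Btc (8.10). Areg made up between 29.8% and 70.9% of the summed CPM per kb of the 8 ligands, with a median of 57.0%. Egf rested on 12 to 56 counts per library and Ereg on 4 to 180, which limits what can be seen in these 2 genes.

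**Figure D1:**
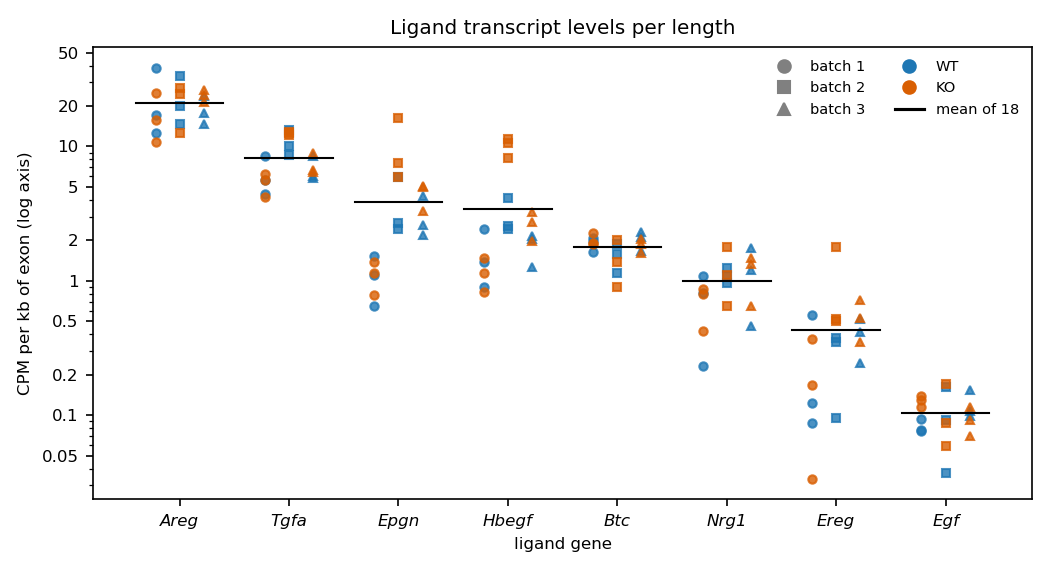
CPM per kb of exon (log axis) of each ligand in all 18 libraries, with shapes for batches, colours for genotypes and a line at the mean. Areg lies highest with a mean of 21.2 CPM per kb and Egf lowest with 0.104, and the 3 KO libraries of batch 2 lie highest for Epgn and for Hbegf.

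Ligand transcripts in EGF medium were compared with those in RW medium to ask how the growth factor supplied bears on the ligands the organoids make. Over both genotypes Areg, Tgfa and Nrg1 rose in EGF medium and no ligand fell, 3 of 8 ligands against 25.5% of all genes tested in either direction. The median log2 fold change of the 8 ligands was 0.33, and that of all genes tested was -0.02. In ERW against RW medium, 1 of 8 ligands, Nrg1, rose, against 22.9% of all genes. In ERW against EGF medium Areg and Tgfa fell and none rose, 2 of 8 ligands against 27.9% of all genes. These shares come from edgeR's quasi-likelihood test with the batch as a term, at a Benjamini-Hochberg adjusted p under 0.05, and a gene past it is said to be called. The 3 contrasts share libraries, and 2 of them fix the estimate of the third.

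Areg in EGF medium stood at 47.0, 40.6 and 29.0 CPM in WT batches 1, 2 and 3, and at 30.2, 33.1 and 32.0 CPM in the KO batches. In RW medium it was at 15.2, 24.5 and 17.9 CPM in WT and at 13.1, 30.1 and 29.6 CPM in KO. In ERW medium it was at 21.0, 17.8 and 21.7 CPM in WT and at 19.1, 15.2 and 25.9 CPM in KO. Within each genotype every EGF library was above every RW and every ERW library, although in KO the lowest EGF library (30.2 CPM) hardly exceeded the highest RW library (30.1 CPM). The RW and ERW libraries overlapped in both genotypes.

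Over both genotypes Areg rose 1.66-fold in EGF against RW medium (log2 fold change 0.73 ± 0.20 SE, edgeR adjusted p = 0.0179) and was higher in 6 of 6 pairs of the same genotype and batch. In ERW against EGF medium it fell by 0.81 ± 0.20 on the log2 scale (adjusted p = 0.00958), and it was lower in 6 of 6 pairs. In ERW against RW medium its difference was -0.08 ± 0.21, with 3 pairs higher and 3 lower. The rise in EGF medium was 1.63 and 1.20 on the log2 scale in the WT and KO pairs of batch 1, and between 0.11 and 0.73 in the other 4 pairs. Without batch 1 it was 0.42 (adjusted p = 0.128), without the WT RW library of batch 1 it was 0.67 (adjusted p = 0.0563), and without the filter on low counts it was 0.73 (adjusted p = 0.0559). The fall in ERW medium was -0.66 without batch 2 (adjusted p = 0.102).

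Tgfa in EGF medium stood at 55.6, 86.5 and 55.2 CPM in WT batches 1, 2 and 3, and at 40.7, 83.8 and 58.2 CPM in KO. In RW medium it was at 29.0, 65.3 and 38.0 CPM in WT and at 27.4, 81.3 and 43.1 CPM in KO. In ERW medium it was at 36.5, 55.6 and 39.2 CPM in WT and at 36.2, 78.4 and 41.8 CPM in KO. Batch 2 was the highest batch in every group, so the groups overlapped although each EGF library was above the RW and the ERW library of its own genotype and batch.

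Within batches Tgfa rose 1.40-fold in EGF against RW medium (log2 fold change 0.48 ± 0.10, adjusted p = 0.00121) and was higher in 6 of 6 pairs. It fell by 0.41 ± 0.10 in ERW against EGF medium (adjusted p = 0.00416), again in 6 of 6 pairs. In ERW against RW medium the difference was 0.07 ± 0.10, with 3 pairs higher and 3 lower. Without the batch term the adjusted p values of the rise and of the fall were 0.445 and 0.433, and without batch 3 the fall was -0.38 on the log2 scale (adjusted p = 0.111).

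Nrg1 in RW medium stood at 2.39, 12.8 and 4.78 CPM in WT batches 1, 2 and 3, and at 4.39, 6.71 and 6.67 CPM in KO. In EGF medium it was at 11.3, 11.3 and 18.01 CPM in WT and at 8.20, 11.4 and 15.4 CPM in KO. In ERW medium it was at 8.43, 9.97 and 12.5 CPM in WT and at 8.95, 18.6 and 13.7 CPM in KO. The KO libraries of EGF and ERW medium all lay above those of RW medium, whereas in WT the RW library of batch 2 lay among the highest.

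Nrg1 was the 1 ligand raised in both media that held EGF. It rose 2.10-fold in EGF against RW medium (log2 fold change 1.07 ± 0.25, adjusted p = 0.00402) and 1.97-fold in ERW against RW medium (0.98 ± 0.24, adjusted p = 0.00828), each in 5 of 6 pairs. The pair that went the other way was WT batch 2 in both cases. ERW against EGF medium differed by -0.10 ± 0.24 (95% interval -0.60 to 0.41). Without the batch term the 2 adjusted p values were 0.0544 and 0.0869. They were 0.0725 and 0.119 without batch 1, and 0.142 and 0.115 without batch 3. Of the other neuregulins only Nrg2 passed the filter, and it rose 7.28-fold in EGF (log2 2.86 ± 0.35, adjusted p = 6.46e-06) and 8.86-fold in ERW (3.15 ± 0.34, adjusted p = 3.95e-06) against RW medium. Nrg2 had 63 to 253 counts in the EGF and ERW libraries and 0 to 34 in the RW libraries. Nrg4 stayed at 12 counts or fewer, and Nrg3 had 0 counts in all 18 libraries.

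**Figure D2:**
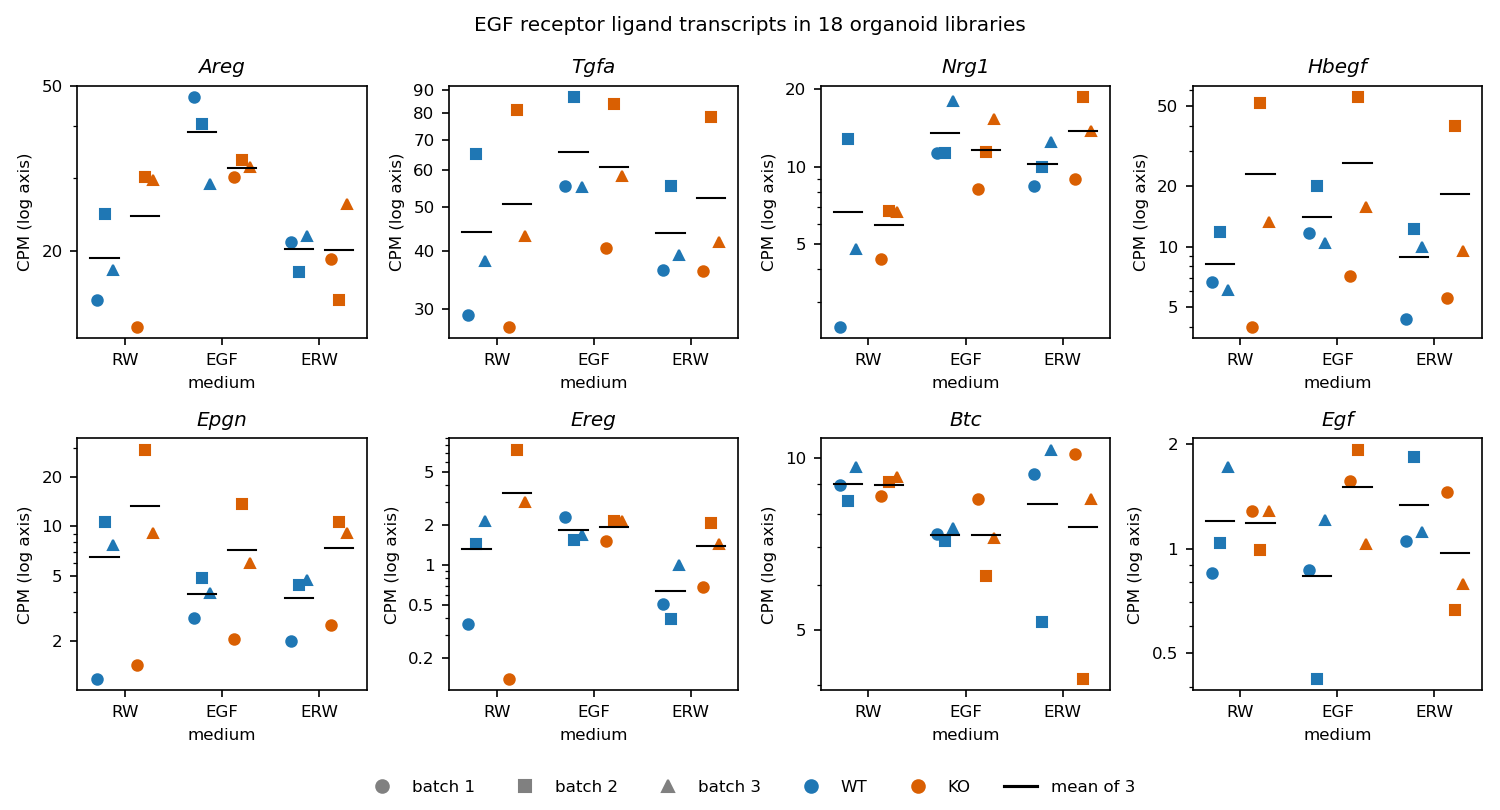
CPM (log axis) of each ligand in the 18 libraries by medium, with colours for genotypes, shapes for batches and a line at the mean of 3. In each genotype the mean of Areg is highest in EGF medium and that of Nrg1 lowest in RW medium. The WT RW library of batch 2 lies at 12.8 CPM for Nrg1, among the highest of WT. The KO libraries of batch 2 (orange squares) lie highest for Hbegf, between 40.0 and 55.2 CPM.

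Hbegf, on chromosome 18 (36504929 to 36515805), did not pass the test between media, but its pairs pointed 1 way. It was higher in EGF than in RW medium in 6 of 6 pairs, by 0.10 to 0.83 on the log2 scale, and lower in ERW than in EGF medium in 6 of 6. The fitted differences were 0.55 ± 0.35 (adjusted p = 0.308) and -0.64 ± 0.35 (adjusted p = 0.211). In ERW against RW medium 3 pairs were higher and 3 lower.

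Ereg was lower in ERW than in EGF medium in 6 of 6 pairs as well, with a fitted difference of -1.14 ± 0.55 (adjusted p = 0.138). Its EGF against RW pairs split by batch: they were 2.46 and 2.93 in batch 1 and between -1.76 and 0.09 in batches 2 and 3. Epgn split the same way, at 1.19 and 0.51 in batch 1 and between -1.13 and -0.60 in the other 4 pairs. Without batch 1, Epgn was lower in EGF (-0.98, adjusted p = 0.0204) and in ERW medium (-0.90, adjusted p = 0.0420) than in RW medium, and Ereg was lower in ERW than in RW medium (-1.47, adjusted p = 0.0312). With all batches these differences were -0.48 ± 0.35, -0.48 ± 0.35 and -0.98 ± 0.55, with adjusted p values of 0.378, 0.388 and 0.241.

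Btc ranged from 4.09 to 10.4 CPM and was lower in EGF than in RW medium in 6 of 6 pairs, by 0.02 to 0.54 on the log2 scale (fitted difference -0.31 ± 0.16, adjusted p = 0.203). Its 2 lowest values were the ERW libraries of batch 2, at 5.16 CPM in WT and 4.09 in KO. Egf transcripts ranged from 0.421 to 1.93 CPM and showed no common direction, with 3 pairs higher and 3 lower in EGF and in ERW against RW medium.

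**Figure D3:**
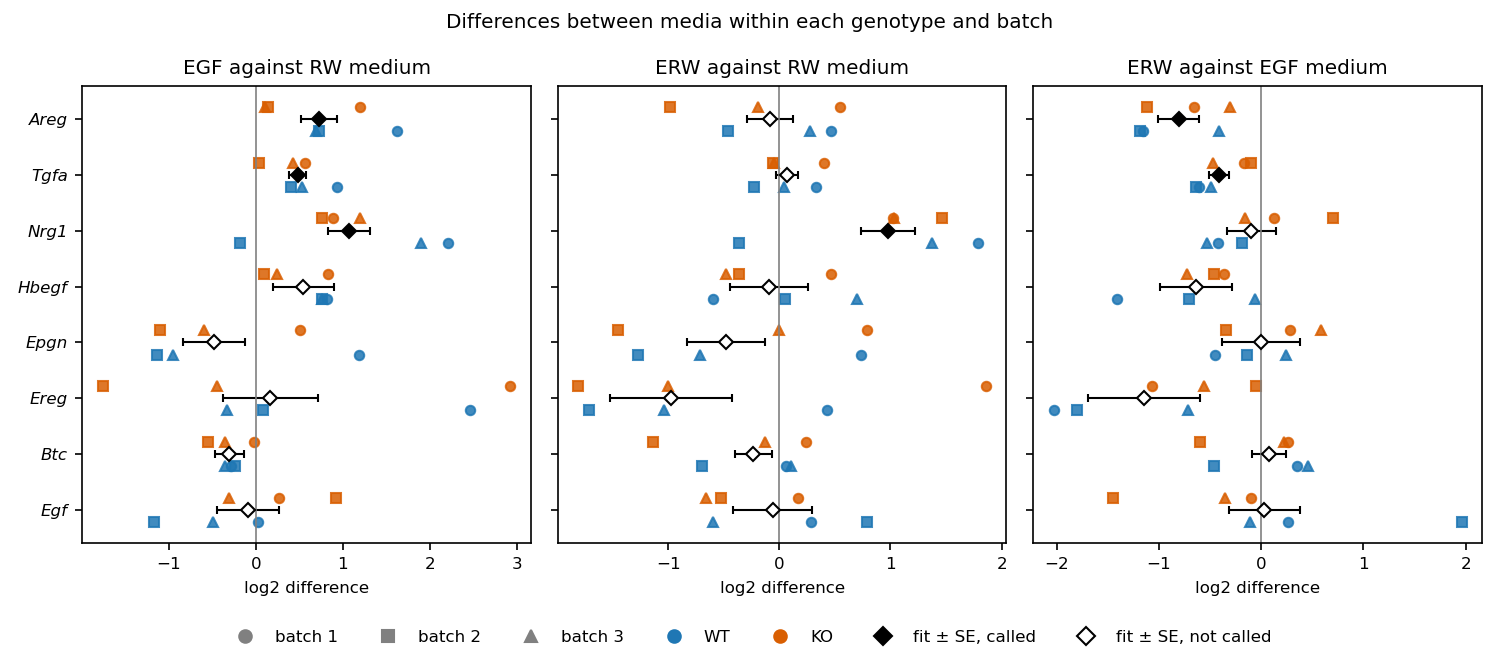
Log2 differences between media for each ligand: each coloured point is 1 genotype and batch, and the diamonds give the edgeR estimate ± SE, filled where called. All 6 points of Areg and Tgfa lie above 0 in EGF against RW medium and below 0 in ERW against EGF medium.

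In the chromosome 5 cluster the neighbours did not share these calls. Areg was the 1 of 4 cluster genes called between media, and Ereg, whose start is 65.0 kb away, had a wider error on fewer counts. With batch means removed, the log2 levels of Areg and Tgfa, which are on different chromosomes, had a Pearson correlation of 0.83 over the 18 libraries, against 0.66 for Areg and Ereg, 0.27 for Areg and Epgn, and 0.10 for Areg and Btc. Ereg and Epgn had 0.76, Ereg and Tgfa 0.73, and Ereg and Hbegf 0.70. These values describe the same 18 libraries, which share depth, media and batches. Removing batch means leaves differences between genotypes within a batch in place. The mean KO minus WT log2 differences in batch 2 were 1.75 for Hbegf, 1.65 for Ereg and 1.40 for Epgn. For Tgfa and Areg they were 0.255 and -0.07. The correlations were not computed without batch 2, and the part of that shift in them was not tested.

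**Figure D4:**
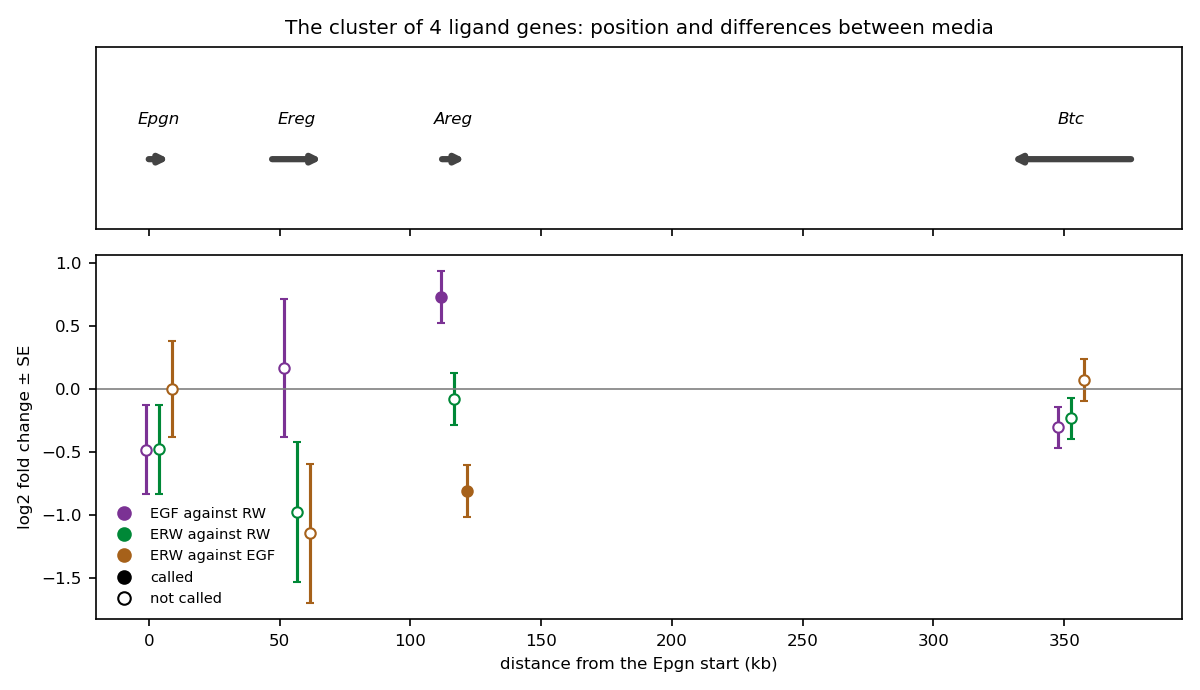
Upper panel: the 4 ligand genes of the chromosome 5 cluster by distance from the Epgn start in kb, with arrows for the direction of transcription. Lower panel: log2 fold change ± SE over both genotypes for 3 pairs of media, filled where called. Areg carries both filled points, at 0.73 and -0.81.

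The same contrasts were made in each genotype alone. In WT, Areg (log2 1.04 ± 0.29, adjusted p = 0.0261), Tgfa (0.63 ± 0.14, adjusted p = 0.00391) and Nrg1 (1.17 ± 0.35, adjusted p = 0.0322) rose in EGF against RW medium, 3 of 8 ligands against 15.4% of all genes. In WT ERW against EGF medium, Areg (-0.96 ± 0.29, adjusted p = 0.0393) and Tgfa (-0.58 ± 0.14, adjusted p = 0.00867) fell, 2 of 8 against 15.6%. In WT ERW against RW medium 0 of 8 were called by edgeR and by DESeq2, against 10.7%, and 1 ligand, Nrg1 (0.77 ± 0.35), had an unadjusted p under 0.05. In KO, 0 of 8 were called in EGF against RW medium, against 13.5%, while 2 ligands had an unadjusted p under 0.05: Nrg1 (0.97 ± 0.35, adjusted p = 0.0790) and Tgfa (0.33 ± 0.14, adjusted p = 0.133). DESeq2 called 1 of these, Nrg1. In KO ERW against RW medium Nrg1 rose (1.19 ± 0.34, adjusted p = 0.0337), 1 of 8 against 12.7%. In KO ERW against EGF medium 0 of 8 were called by edgeR and by DESeq2, against 11.6%, and Areg alone (-0.66 ± 0.29, adjusted p = 0.170) had an unadjusted p under 0.05. Calls in 1 genotype rest on 3 libraries a group: leaving out any 1 of the 6 libraries compared ended the Nrg1 call in KO, although the log2 fold change stayed between 1.07 and 1.27. Leaving out any 1 batch ended both Areg calls in WT, with values of 0.72, 1.23 and 1.17 in EGF against RW medium without batches 1, 2 and 3, and of -0.83, -0.85 and -1.18 in ERW against EGF medium. The Nrg1 call in WT held in 2 of 6 omissions of a library, in 1 of 3 omissions of a batch and in 2 of 5 other settings. Its value was 0.77 without batch 1 (adjusted p = 0.347), 2.07 without batch 2 and 0.83 without batch 3 (adjusted p = 0.451). The Tgfa calls in WT were lost without batch 3, at 0.68 (adjusted p = 0.0707) and -0.62 (adjusted p = 0.118), and the second also without the WT ERW library of batch 2 (-0.46, adjusted p = 0.0630). Without batch 2 further calls were made: Nrg1 in WT ERW against RW medium (1.59, adjusted p = 0.000526) and Nrg1 (1.06, adjusted p = 0.00315) and Tgfa (0.50, adjusted p = 0.0493) in KO EGF against RW medium.

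Whether the genotypes responded differently was tested directly. No ligand, and 0.0% of all genes, was called for a difference between KO and WT in any of the 3 responses by edgeR. Unadjusted p values under 0.05 were found for 356 genes in EGF against RW, 286 in ERW against RW and 306 in ERW against EGF medium, 0 of them ligands, and DESeq2 called 0, 1 and 0 genes. For Areg the EGF against RW response in KO minus that in WT was -0.63 ± 0.41 (95% interval -1.51 to 0.25). For Tgfa it was -0.30 ± 0.19 (-0.71 to 0.11) and for Nrg1 -0.20 ± 0.49 (-1.23 to 0.84). These intervals hold 0 and also hold responses in KO well below those in WT. They hold responses above those in WT as well, up to 0.25 for Areg, 0.11 for Tgfa and 0.84 for Nrg1.

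Knockout and wild type were then compared in level. Over the 3 media 0 of 8 ligands were called by edgeR and by DESeq2, against 0.339% of all genes, and 2 ligands, Epgn and Hbegf, had an unadjusted p under 0.05. In each medium alone 0 of 8 were called by either tool and 0 of 8 had an unadjusted p under 0.05, against 0.0702% of genes called in EGF, 0.0819% in ERW and 0.0819% in RW medium. Areg differed by 0.00 ± 0.17 (95% interval -0.36 to 0.36), Tgfa by 0.07 ± 0.08 (-0.10 to 0.24), Nrg1 by 0.02 ± 0.20 (-0.40 to 0.44) and Btc by -0.05 ± 0.13 (-0.34 to 0.23) on the log2 scale over the 3 media. The fit counts the 3 media of 1 genotype and batch as separate cultures. These intervals therefore do not allow for a genotype difference that varies between batches. In batches 1, 2 and 3 the KO minus WT difference averaged -0.33, -0.07 and 0.37 for Areg, and -0.18, 0.255 and 0.12 for Tgfa.

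Hbegf in KO stood at 55.2, 40.0 and 51.5 CPM in EGF, ERW and RW medium of batch 2, against 20.1, 12.3 and 11.8 CPM in WT. In batch 1 it was at 7.17, 5.57 and 4.005 CPM in KO against 11.8, 4.37 and 6.66 CPM in WT, and in batch 3 at 15.8, 9.50 and 13.3 CPM against 10.4, 9.97 and 6.11 CPM. The genotypes were thus apart in batch 2 and overlapped in batches 1 and 3. The KO minus WT difference averaged -0.36, 1.75 and 0.55 on the log2 scale in batches 1, 2 and 3. Over all batches it was 0.68 ± 0.30 (adjusted p = 0.446), and without batch 2 it was 0.08 (adjusted p = 1.0).

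Epgn and Ereg followed the same order of batches. Epgn in KO was at 13.6, 10.7 and 29.3 CPM in EGF, ERW and RW medium of batch 2, against 4.84, 4.38 and 10.7 CPM in WT, and its KO minus WT difference averaged 0.05, 1.40 and 0.59 in batches 1, 2 and 3. Over all batches it was 0.72 ± 0.29 (adjusted p = 0.398), higher in 8 of 9 pairs, and without batch 2 it was 0.30. For Ereg the averages were -0.41, 1.65 and 0.42, and the difference of 0.72 ± 0.45 (adjusted p = 0.577) became 0.11 without batch 2. For these 3 genes the genotype difference was largest in batch 2, whose KO libraries also had the fewest genes detected, and the part of that shift in the result was not tested.

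**Figure D5:**
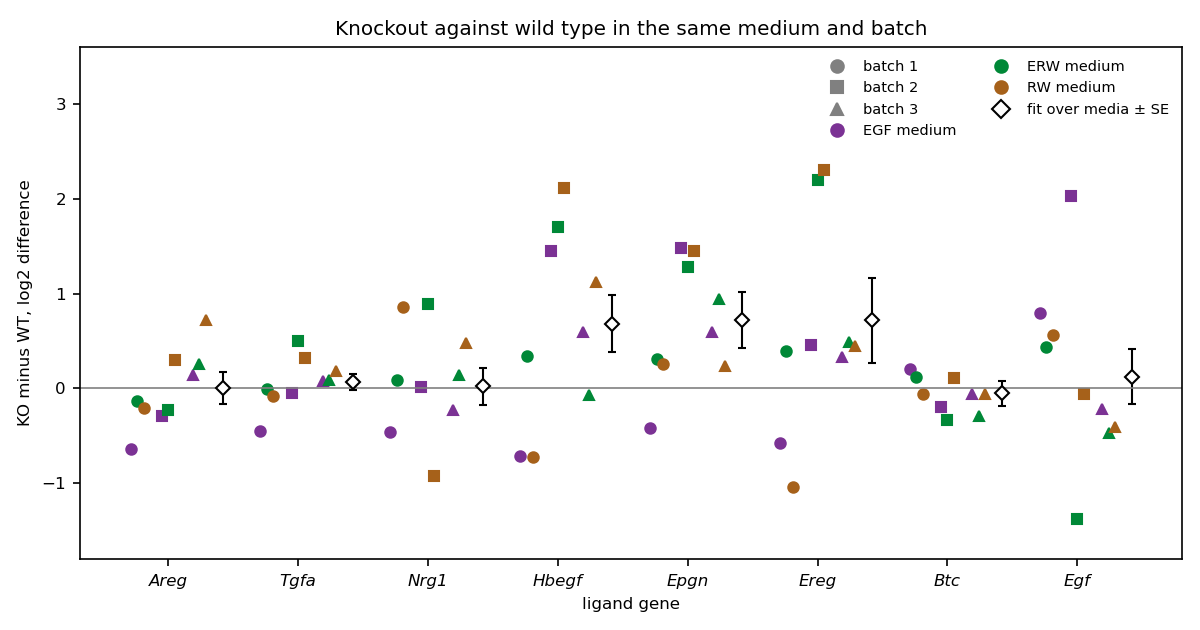
KO minus WT log2 difference of each ligand in the same medium and batch (shapes for batches, colours for media), with the edgeR estimate over the media ± SE as an open diamond. The batch 2 squares of Hbegf and Epgn lie between 1.28 and 2.11, and no diamond was called.

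The labelled batch held a larger share of the variation in several ligands than the medium did. It held 71.4% of the variation in log2 level of Tgfa, 70.5% of that of Epgn and 63.3% of that of Hbegf, against 17.9%, 1.80% and 6.95% for the medium. These shares include the KO libraries of batch 2, and the batches differed more in KO than in WT for Hbegf and Epgn. Mean Hbegf was 7.60 CPM in batch 1 and 14.8 in batch 2 in WT, and 5.58 and 48.9 CPM in KO. Mean Epgn was 1.99 and 6.63 CPM in WT, and 2.00 and 17.9 CPM in KO. For Areg the batch held 4.0% and the medium 54.9%, and for Nrg1 23.9% and 49.6%. The medians over all genes tested were 30.4% for the batch and 20.8% for the medium. In the authors' deposited table of batch 2 against batch 1, 38.4% of genes had an adjusted p under 0.05, and among them were Hbegf (log2 2.09, adjusted p = 1.75e-07), Tgfa (1.02, adjusted p = 5.12e-19), Epgn (2.35, adjusted p = 3.4e-11), Nrg1 (0.83, adjusted p = 0.00242) and Btc (-0.42, adjusted p = 0.0424). In the authors' deposited table of batch 3 against batch 1, with 36.8% of genes past that threshold, Epgn (1.62, adjusted p = 9.7e-06), Nrg1 (0.69, adjusted p = 0.0141) and Tgfa (0.29, adjusted p = 0.0267) were. Areg, Ereg and Egf passed it in neither. What the labelled batches differ in is not stated, and its part in these ligand levels was not tested.

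Of the 4 ErbB receptors 1 fell in EGF against RW, 1 fell in ERW against RW, and 1 rose and 1 fell in ERW against EGF medium, where 25.5%, 22.9% and 27.9% of all genes were called. With 4 genes, these counts do not stand apart from those shares. Egfr fell in ERW medium, by 0.28 ± 0.07 against RW (adjusted p = 0.00860) and by 0.37 ± 0.07 against EGF medium (adjusted p = 0.000875), and was at 0.10 ± 0.07 in EGF against RW medium (adjusted p = 0.377). Erbb3, the partner receptor that binds neuregulins, was lower in EGF than in RW medium (-0.22 ± 0.06, adjusted p = 0.00774) and higher in ERW than in EGF medium (0.31 ± 0.06, adjusted p = 0.000598). Erbb2, which has no ligand of its own, and Erbb4 were not called in any of these 3 contrasts. Erbb4 had 54 to 204 counts per library, against 2783 or more for the other 3 receptors.

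Of 10 inhibitors and turnover factors of the receptors, 1 rose and 2 fell in EGF against RW medium, 1 rose in ERW against RW, and 2 rose and 1 fell in ERW against EGF medium. The shares of all genes called were 25.5%, 22.9% and 27.9%, so the counts of this list lay near or below them. Lrig1, a membrane protein that lowers ErbB receptor levels, rose by 0.86 ± 0.12 in EGF against RW medium (adjusted p = 6.91e-05) and fell by 0.69 ± 0.12 in ERW against EGF medium (adjusted p = 0.000559). Its relative Lrig3 went the other way in the same contrasts, at -0.44 ± 0.07 (adjusted p = 0.000137) and 0.26 ± 0.07 (adjusted p = 0.0108). Cblc, a ubiquitin ligase of the Cbl family, was lower in EGF than in RW medium (-0.46 ± 0.07, adjusted p = 0.000148). It was higher in ERW than in both other media, by 0.27 ± 0.07 against RW (adjusted p = 0.0127) and 0.72 ± 0.07 against EGF (adjusted p = 3.25e-06).

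Of 18 genes of ligand release and transport, 6 rose and 0 fell in EGF against RW medium, 2 rose and 3 fell in ERW against RW, and 0 rose and 7 fell in ERW against EGF medium, against 25.5%, 22.9% and 27.9% of all genes called in either direction. The median log2 fold changes of this list were 0.08, -0.01 and -0.10, and those of all genes tested were -0.02, 0.00 and 0.01. Adam17, the main protease for Areg, Tgfa, Hbegf, Ereg and Epgn, was not called, with group means from 103 to 114 CPM. Adam10, which cuts Btc and Egf, rose by 0.23 ± 0.05 in EGF against RW medium (adjusted p = 0.00288) and fell by 0.25 ± 0.05 in ERW against EGF medium (adjusted p = 0.00196), and Adam9 and the protease Furin, which matures ADAM precursors, did likewise (0.35 and 0.33, then -0.25 and -0.27). Timp3, an inhibitor of ADAM17, rose by 0.61 ± 0.13 (adjusted p = 0.00334) and fell by 0.76 ± 0.13 (adjusted p = 0.000763) in those contrasts. Rhbdf1, a partner that carries ADAM17 to the surface, and Cd9, a membrane protein that binds the HB-EGF precursor, rose in EGF (0.30 and 0.20) and in ERW (0.17 and 0.18) against RW medium. Adam12 and Adam19 fell in ERW medium by 1.12 and 1.14 against RW and by 1.13 and 1.10 against EGF medium, and Adam15 fell by 0.15 in both.

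Of 6 genes listed here as upstream of Areg in mammary epithelium, 5 rose and 0 fell in EGF against RW medium, where 25.5% of all genes were called. The evidence that each listed gene acts upstream of Areg was not examined here. These were the estrogen receptor Esr1 (0.66 ± 0.13, adjusted p = 0.000771), the progesterone receptor Pgr (0.51 ± 0.09, adjusted p = 0.000541), the prolactin receptor Prlr (1.12 ± 0.10, adjusted p = 4.14e-07), the pioneer factor Foxa1 (0.89 ± 0.16, adjusted p = 0.000688) and the coactivator Cited1 (2.07 ± 0.20, adjusted p = 5.71e-07). In ERW against EGF medium 3 fell and 0 rose, against 27.9% of all genes called: Esr1 (-0.90 ± 0.13, adjusted p = 6.72e-05), Pgr (-0.76 ± 0.09, adjusted p = 1.88e-05) and Prlr (-0.33 ± 0.09, adjusted p = 0.0161). In ERW against RW medium 3 rose and 0 fell, namely Prlr (0.79), Foxa1 (0.96) and Cited1 (1.72), against 22.9% of all genes called. Esr1 and Pgr therefore had the calls of Areg in all 3 contrasts, up in EGF against RW, down in ERW against EGF and not called in ERW against RW medium. These calls were not particular to them: Tgfa, Lrig1, Adam9, Adam10, Furin and Timp3 had the same ones. The first 2 of these contrasts share the EGF libraries and their estimates fix the third, so the 3 calls are not separate results. The share of all genes with these 3 calls was not counted. The part of Esr1 and Pgr in the level of Areg was not tested. In KO against WT over the media, 0 genes of these ligand, receptor, inhibitor, release and upstream lists were called, against 0.339% of all genes. With so low a share, lists of this size would hold few or no calls in any case.

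Markers of other cell types moved with the medium too. The marker counts below stand against 25.5% of all genes called in EGF against RW, 22.9% in ERW against RW and 27.9% in ERW against EGF medium. The summed level of 8 fibroblast markers was 2016 to 5320 CPM in EGF, 724 to 1882 in ERW and 1081 to 3382 in RW medium. Of these 8 markers 3 rose in EGF against RW medium, and 8 fell in ERW against EGF and 6 fell in ERW against RW medium. The 6 myeloid markers summed to 703 to 1033 CPM in EGF, 382 to 753 in ERW and 222 to 355 in RW medium, with 1 higher and 4 lower in ERW than in RW and 4 lower in ERW than in EGF medium. Most of that sum was Cd14, at a mean of 787 CPM in WT EGF and 257 CPM in WT RW medium. Cd14 rose by 1.53 in EGF and by 0.96 in ERW against RW medium, and the other 5 markers were not called in EGF against RW medium. All 6 endothelial and all 5 adipocyte markers fell in ERW against both other media. The 10 squamous markers summed to 75.4 to 174 CPM in EGF, 136 to 254 in ERW and 409 to 1633 in RW medium, and 9 of them fell in EGF and in ERW against RW medium. The 7 basal markers summed to 3659 to 5150 CPM in EGF, 4057 to 6205 in ERW and 6501 to 9438 in RW medium. Of them 1 rose and 4 fell in EGF against RW, and 0 rose and 6 fell in ERW against RW medium. In ERW against EGF medium 4 rose and 2 fell. The 10 luminal markers include 5 of the genes listed as upstream of Areg. They summed to 3609 to 5714 CPM in EGF, 4229 to 4975 in ERW and 3872 to 5005 in RW medium. Although these sums overlapped, 6 luminal markers rose and 1 fell in EGF and in ERW against RW medium. In ERW against EGF medium 1 rose and 3 fell. The 4 Schwann cell markers summed to 557 to 852 CPM in EGF, 522 to 875 in ERW and 399 to 592 in RW medium. Of these 4 markers 1 rose and 1 fell in EGF against RW medium. In ERW medium 1 rose and 0 fell against RW, and 0 were called against EGF medium. Their median log2 fold changes against RW medium were -0.24 in EGF and -0.45 in ERW, below 0 although the sums ran higher. The 6 lymphocyte markers summed to 1.70 CPM or less with Cd3d at 0. No other marker was at 0 in all libraries. Their part in the ligand results was not tested, and in such bulk RNA fewer cells of a type and less RNA per cell cannot be told apart.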

How the data were processed

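RNA-seq read counts per gene for 18 libraries were analysed as deposited. The authors used STAR, DESeq2 and the GRCm38 build, per the submitters' processing notes; the sources used here state no versions, strand setting or annotation release. Libraries were made with a NuGEN kit from 100 ng of RNA and read as single ends of 50 bases, per the labels' protocols. The log2 fold changes and adjusted p-values between batches are the authors' deposited values, and the file headers name a batch term. All other values were computed from the counts.

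Counts were fitted with edgeR 4.0.16 (R 4.3.3): TMM scaling, filterByExpr (minimum count 10, minimum total 15), 1 mean for each of 6 groups and a batch term, robust quasi-likelihood F-tests, two-sided, and Benjamini-Hochberg adjustment over 17092 genes in each of 16 contrasts. The script was tested on simulated data. The SE is the size of the log2 fold change divided by the root of F, and 95% intervals use the fit's degrees of freedom. Libraries of the same batch deviated together: correlations of deviations from group means were 0.18 to 0.45 within batches and -0.29 to 0.00 between them. The labels give the batch, which equals the replicate number. CPM uses TMM-scaled totals. Exon lengths are unions of exons in GENCODE vM21. Overlapping genes held at most 111 counts in all (against 882 for Ereg), and without a known strand setting reads there cannot be assigned to a strand.

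The members and the gene lists were chosen with earlier results of these data known. The rule for naming genes took all 8 members, all ErbB receptors, the members of the other lists called in a contrast of media over both genotypes, and the 3 genes most like each member in pattern; Adam17, Nrg3 and Nrg4 were added after their values were seen. Departing from that rule, cell type marker lists are given by counts and sums, and Cd14 was named after its values were seen. Other settings tried were no batch term, RLE size factors, no low-count filter, only the groups compared, DESeq2 1.42.0, and leaving out each library or batch.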

Additional observations from a re-analysis of the deposited data

How the results depend on the processing

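No ligand called under any setting had the opposite sign in the reported fit, and RLE size factors changed no ligand call. Without the replicate block the number of ligands called was 1 in EGF against RW (3 with it), 0 in ERW against RW (1) and 1 in ERW against EGF medium (2) over both genotypes. In WT it was 1 (3 with it) in EGF against RW and 0 (2) in ERW against EGF medium, and in KO it was 0 (1) in ERW against RW medium. The same fit called 2022, 1730 and 1743 of all genes in the 3 contrasts over both genotypes (4355, 3921 and 4771 with the block), 888, 404 and 369 in WT (2639, 1835 and 2672), 729, 439 and 115 in KO (2306, 2179 and 1991), and 22 for KO against WT over the media (58), 6 in ERW (14) and 5 in RW medium (14). DESeq2 called 190 genes for KO against WT over the media, and 34, 30 and 29 in EGF, ERW and RW medium (12, 14 and 14 with edgeR). With no filter on low counts the ligands called were 1 in WT EGF against RW, 1 in WT ERW against EGF and 0 in KO ERW against RW medium. With only the groups compared they were 1 in KO EGF against RW and 2 in KO ERW against EGF medium (0 and 0 in the full fit), and genes called for KO against WT were 7 in EGF, 23 in ERW and 1 in RW medium. DESeq2 called 1 ligand in KO EGF against RW medium. Leaving out 1 library or 1 batch gave 2 to 3 ligands called in EGF against RW, 0 to 2 in ERW against RW and 1 to 2 in ERW against EGF medium over both genotypes. In WT the ranges were 0 to 3, 0 to 1 and 0 to 2, and in KO 0 to 2, 0 to 1 and 0 to 0. For KO against WT and for the differences in response, 0 ligands were called under every setting run. Ereg was also called in ERW against RW medium without the KO RW library of batch 1 (-1.34, adjusted p = 0.0277). With only the groups compared Ereg was called in ERW against EGF medium over both genotypes (-1.05, adjusted p = 0.0336) and Hbegf in WT EGF against RW medium (0.78, adjusted p = 0.01155). In that WT fit Nrg1 lost its call (1.295, adjusted p = 0.134). The cause of these changes was not tested. Egf and Ereg rest on few counts, so small changes in them were not detectable.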

Other observations

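The genes whose log2 CPM followed each ligand most closely, with batch means removed, were ranked over 18 libraries among the other genes with a mean of at least 4 CPM (11194 genes in all). Correlations are descriptions over libraries that share media and batches, and they keep the shift of the KO libraries of batch 2. They were not computed without batch 2. The genes were picked for likeness in these same libraries, so calls that they share with a ligand are not separate support. For Areg they were Rasgrf1 (Pearson r 0.89), a Ras exchange factor, the ceramide synthase Cers5 (0.88) and Akr1b8 (0.86), an aldo-keto reductase. Rasgrf1 rose by 0.76 in EGF against RW medium (adjusted p = 0.000336) and fell by 0.60 in ERW against EGF medium (adjusted p = 0.00276), the calls of Areg. For Tgfa they were Ptgs2 (0.92), which encodes the prostaglandin-producing enzyme COX-2, Leprot (0.90) and Dkkl1 (0.90). Ptgs2 rose by 1.91 in EGF against RW medium (adjusted p = 0.00108), fell by 1.76 in ERW against EGF medium (adjusted p = 0.00191) and was at 0.15 in ERW against RW medium.

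For Nrg1 the closest were Actr2 (0.90), a subunit of the actin-branching Arp2/3 complex, Ccdc107 (0.89) and Tgfbr3 (0.88), a TGF-beta co-receptor. Tgfbr3 rose in EGF (0.62, adjusted p = 1.85e-05) and in ERW (0.52, adjusted p = 0.000155) against RW medium and was at -0.10 between the media that held EGF, and Nrg1 had the same calls. For Hbegf they were Osgin1 (0.92), Trib1 (0.91) and Actb (0.91), for Ereg Tnfrsf12a (0.86), Atp13a3 (0.86) and the phosphatase Dusp5 (0.83), and for Epgn Bcl10 (0.88), Plk2 (0.87) and Ppm1a (0.845). For Btc and Egf the closest correlations were lower, at 0.81 for Nectin2, 0.79 for Fitm2 and 0.79 for Stoml1, and at 0.79 for Cep290, 0.69 for Lrrc49 and 0.66 for D6Wsu163e.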
